A study of Homo sapiens with 6 samples.

Results

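The genes described here are 42 genes of homologous recombination, the Fanconi anaemia pathway, the DNA damage checkpoint and mismatch repair, with POLQ of microhomology-mediated end joining and RAD18 of damage tolerance. They were taken by gene symbol from a named list, out of 60708 genes in the count table. Of the 42 symbols, 41 were found as listed, and MRE11A was found under its current symbol, MRE11. RNA-seq was run on Caki-1 cells, an established human clear cell renal carcinoma line that carries wild-type VHL. The VC group (3 samples) was Caki-1 infected with the empty Lenti-CRISPR vector, and the VHL-KO group (3 samples) was Caki-1 infected with the same vector carrying a guide RNA against VHL, followed by puromycin selection. Between 22628246 and 34881739 reads were counted per sample. The study's methods describe the VHL-KO cells as clonal, and how many clones gave the 3 samples is not given in the sources used here, so the loss of VHL and other traits of a clone cannot be told apart. The labels number the samples without saying that they came from separate cultures, so p-values measure the spread between these samples, which may be technical.

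Homologous recombination repairs a broken chromosome by copying the sister chromatid: the ends are sensed and cut back to single strands, BRCA1 and BRCA2 load the recombinase, and the strand invades its template. The Fanconi anaemia proteins unhook interstrand crosslinks and hand the resulting break to the same machinery, and the ATM and ATR kinases halt the cell cycle meanwhile. Mismatch repair removes errors that replication leaves behind. In dividing cells many of these genes are transcribed in late G1 and S phase, and VHL itself is the substrate receptor of the ubiquitin ligase that degrades HIFα proteins.

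VHL, the edited gene (chr3:10141778-10153667 in GRCh38), had 1454, 1124 and 1522 reads in the VC samples and 929, 657 and 650 reads in the VHL-KO samples, a log2 fold change of -0.33 (SE 0.11, adjusted p = 0.0109, quasi-likelihood F test of edgeR, adjusted by Benjamini-Hochberg). VHL missed the threshold in edgeR with upper quartile factors (-0.22, adjusted p = 0.0905), without VC replicate 1 (-0.28, adjusted p = 0.0862), without VHL-KO replicate 2 (-0.30, adjusted p = 0.0621) and with offsets for GC content and transcript length (-0.08, adjusted p = 0.399). A guide that shifts the reading frame need not lower the mRNA, so this is a weak check of the labels. CA9, a carbonic anhydrase induced through HIF, had 0, 0 and 2 reads in VC cells and 288, 247 and 233 reads in VHL-KO cells. Of 10 HIF target genes 9 rose in VHL-KO cells and EGLN3 fell. The kidney marker PAX8 was at 428 ± 38.9 CPM in VC cells and 614 ± 14.2 CPM in VHL-KO cells (mean ± SD, n = 3), where CPM is counts per 1000000 after TMM scaling of the libraries. PAX2 had no read in any of the 6 samples. Of 10 marker genes of blood, endothelial and fibroblast cells, 2 (CD3E and LUM) had no read in any sample, and the 10 together summed to 36.9, 38.4 and 30.8 CPM in VC and 32.6, 30.6 and 27.1 CPM in VHL-KO samples, with COL1A1 the most abundant. Of the 3 that were tested COL1A1 fell, and CD14 and PECAM1 rose, PECAM1 not without VC replicate 3 (2.11, adjusted p = 0.0648, against 2.73 with all samples and 4.57 without VC replicate 2). Without VHL-KO replicate 1 PECAM1 did not reach 10 reads in any sample and was not tested, so its rise rests on that library. The part of these markers in the results below was not tested.

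Most of the repair genes fell in VHL-KO cells. Of 42 members 36 passed the test with lower expression (85.7%), against 31.2% of all 17401 genes tested, and 30 fell at least 2-fold, against 12.3% of all genes. By edgeR's test 0 members rose at an adjusted p under 0.05 or at an unadjusted p under 0.05, and DESeq2 also called 0 higher, while 28.5% of all genes rose. With offsets for GC content and transcript length, described below, edgeR called 36 members lower, 24 of them at least 2-fold against 10.3% of all genes, and 3 higher (ATM, MSH3 and MLH3). The median log2 fold change was -1.50 for the members and -0.01 for all genes tested. In 38 members every VHL-KO sample lay below every VC sample, a pattern that 33.5% of all genes showed. The summed level of the 42 genes was 1052, 945.9 and 1122 CPM in the VC samples and 417.1, 426.4 and 445.3 CPM in the VHL-KO samples, a ratio of 0.413. In bulk RNA, fewer cells that transcribe a gene and less RNA per cell cannot be told apart. The 6 members that did not pass the test were RAD51D, RAD50, ATM, CHEK2, MSH3 and MLH3, and with library size alone as the scaling RAD51D (-0.38), RAD50 (-0.88) and CHEK2 (-0.53) passed it as well.

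**Figure D1:**
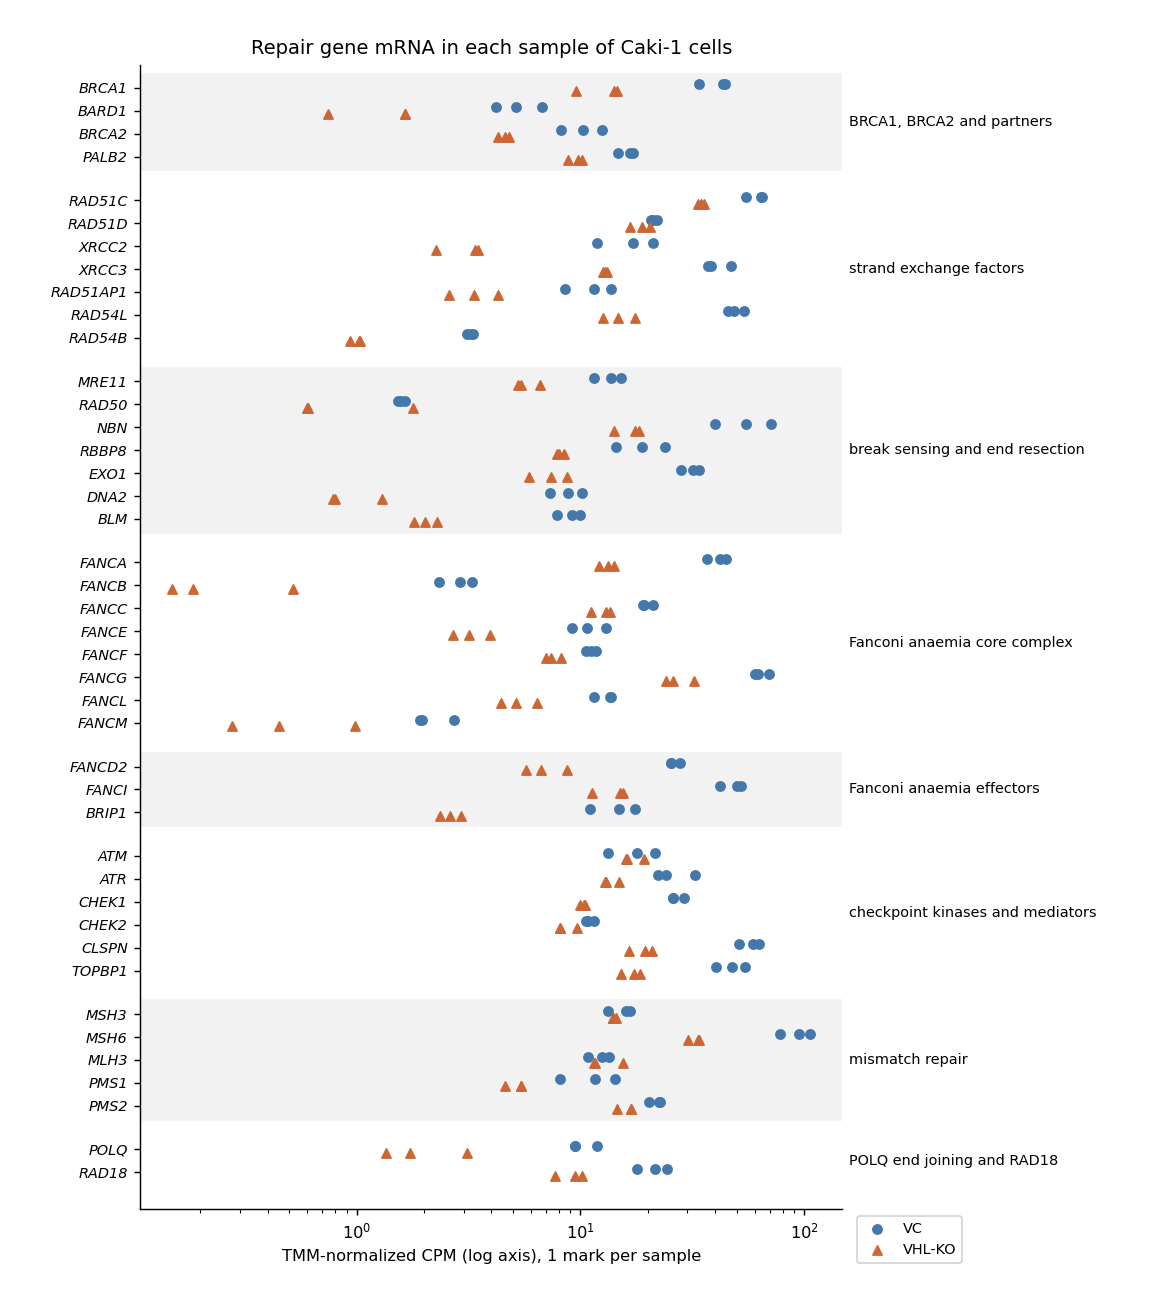
TMM-normalized CPM (log axis) of the 42 repair genes in each of 3 VC samples (circles) and 3 VHL-KO samples (triangles), grouped by role. Triangles lie left of all circles in 38 genes, and overlap them in RAD50, ATM, MSH3 and MLH3.

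Because the members fell together, the promoters of those with a RefSeq entry were searched for motif letters. RefSeq windows from 250 bases before to 50 bases after the start (GRCh38.p14) were matched for 38 members, 52 windows in all. The E2F letters TTTGGCGC, TTTCCCGC, TTTGCCGC and TTTCGCGC, on either strand, were present in 21.2% of the members' windows, in 10 genes, and in 3.31% of all 35116 windows. In the same search 44.2% of windows of a list of DNA replication and G1/S genes held these letters. The CCAAT box (CCAAT) was in 44.2% of members' windows and 34.6% of all windows, and the cell cycle homology region (TTTGAA) in 7.69% and 15.2%. The median GC content of the windows was 64.3% for members and 58.7% for all, and the part of GC content in these shares was not tested. The E2F matches are printed below with their neighbouring bases, because among the searched letters they had the largest ratio between the members' share and that of all windows. Each line is 30 bases of RefSeq sequence, 5′ to 3′ on the gene's strand, with the E2F letters in capitals.
CLSPN chr1:35769965-35769994, minus strand: actctggctggGCGGGAAAgcaagaacagc
EXO1 chr1:241848197-241848226, plus strand: aaaggtcagccTTTCGCGCgctgtgtaggc
FANCA chr16:89816801-89816830, minus strand: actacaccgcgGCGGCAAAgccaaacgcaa
FANCC chr9:95317737-95317766, minus strand: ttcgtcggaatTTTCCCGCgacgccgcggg
FANCC chr9:95317863-95317892, minus strand: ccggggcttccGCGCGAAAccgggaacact
FANCD2 chr3:10026424-10026453, plus strand: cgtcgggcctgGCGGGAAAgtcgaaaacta
MSH3 chr5:80654534-80654563, plus strand: gcgcggtcaagTTTGGCGCgaaattgtggc
MSH6 chr2:47783137-47783166, plus strand: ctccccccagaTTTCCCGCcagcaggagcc
PMS2 chr7:6009131-6009160, minus strand: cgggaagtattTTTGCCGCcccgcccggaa
TOPBP1 chr3:133661930-133661959, minus strand: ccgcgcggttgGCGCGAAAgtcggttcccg
XRCC2 chr7:152676102-152676131, minus strand: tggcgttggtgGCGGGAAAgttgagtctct

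Counted from the RefSeq start, the capitals begin upstream at position -172 in FANCA, at -46 and -172 in FANCC, at -43 or -100 in PMS2, from its 2 listed starts, and at -107 in MSH3. They span the start in CLSPN (-5), FANCD2 (-2) and TOPBP1 (-7). In EXO1 (5), MSH6 (4) and XRCC2 (22) they begin after the start. EXO1, FANCC and MSH6 also have other listed starts, whose windows held no E2F letters. In MSH3 a further match overlaps the printed one and begins at -103. Of these 10 genes 9 fell, all but MSH3, close to the share of all members with a window (32 of 38). FANCC and PMS2 had small falls (log2 fold changes -0.65 and -0.44), so a match of these letters went with large falls in some genes and with small ones in others. A match is a description of the letters and not of a bound factor.

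The XRCC3 window held 5 CCAAT boxes, and windows of CLSPN, BLM, BRIP1, CHEK1 and PMS2 held 3 each. The log2 fold changes of these genes ranged from -2.46 in BRIP1 to -0.44 in PMS2, with -1.61 in CLSPN and -1.66 in XRCC3, so windows with as many boxes went with falls of very different size. The upstream stretches of XRCC3, for its number of boxes, and of CLSPN, for comparison, are shown with each CCAAT, on either strand, in capitals. The CLSPN stretch ends at the base before its start, and the XRCC3 stretch ends at position -54.
CLSPN chr1:35769979-35770228, minus strand: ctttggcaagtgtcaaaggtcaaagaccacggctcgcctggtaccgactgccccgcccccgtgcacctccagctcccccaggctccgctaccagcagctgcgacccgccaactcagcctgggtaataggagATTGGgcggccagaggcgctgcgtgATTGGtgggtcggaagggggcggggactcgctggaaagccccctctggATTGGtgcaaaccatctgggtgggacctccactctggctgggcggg
XRCC3 chr14:103715505-103715701, minus strand: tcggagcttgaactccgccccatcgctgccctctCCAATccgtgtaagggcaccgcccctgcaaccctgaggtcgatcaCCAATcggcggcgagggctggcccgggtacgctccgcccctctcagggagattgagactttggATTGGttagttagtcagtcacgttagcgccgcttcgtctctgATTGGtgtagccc

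The CLSPN stretch of 250 bases holds 3 CCAAT boxes, all read on the opposite strand as ATTGG. The XRCC3 stretch of 197 bases holds 4 of the 5 in its window, on both strands. No E2F letters were found in the XRCC3 window.

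BRCA1, BRCA2 and their partners fell, 4 of 4, with a median log2 fold change of -1.43. BRCA1, a ubiquitin ligase that channels breaks into recombination, lies at chr17:43044295-43170245 and was at 43.5, 34.0 and 44.3 CPM in the VC samples and 14.5, 9.50 and 14.2 CPM in the VHL-KO samples. The groups were far apart, and its log2 fold change was -1.67 (SE 0.15, adjusted p = 6.34e-10, the same test). BARD1, the obligate partner of BRCA1 in the ligase, was at 5.16, 4.17 and 6.72 CPM in VC and 1.65, 0.742 and 1.64 CPM in VHL-KO cells. It also showed no overlap (-1.98, SE 0.26, adjusted p = 5.50e-07). BRCA2, which loads the recombinase onto single-stranded DNA, went from 10.2, 8.18 and 12.5 CPM to 4.79, 4.59 and 4.27 CPM. VC samples varied more than VHL-KO samples for BRCA2, yet the lowest VC sample stayed above the highest VHL-KO sample (log2 fold change -1.18, adjusted p = 3.83e-06). PALB2, the bridge between BRCA1 and BRCA2, fell as well (-0.76, SE 0.14, adjusted p = 5.46e-05).

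Of the strand exchange factors 6 of 7 fell (median -1.69). XRCC2, a paralogue of the recombinase, was at 17.2, 11.9 and 21.2 CPM in the VC samples and 3.48, 3.38 and 2.25 CPM in the VHL-KO samples. This was a 5.49-fold difference between means with no overlap (log2 fold change -2.46, SE 0.21, adjusted p = 2.98e-10). RAD51D, which sits in the same paralogue complex as XRCC2, was at 22.0, 21.1 and 20.7 CPM and 16.7, 20.5 and 18.8 CPM. Its samples were separated only narrowly and it did not pass the test (-0.19, SE 0.12, adjusted p = 0.192). RAD51C, the paralogue shared by both complexes, was at 64.5, 54.8 and 63.9 CPM and 34.4, 35.7 and 33.6 CPM, with little spread in VHL-KO cells and a fall of modest size (-0.82, adjusted p = 2.62e-07). Per kilobase of transcript RAD51C had the highest level of the group, 23.8 CPM per kb in VC and 13.5 CPM per kb in VHL-KO cells.

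RAD54L, a translocase that opens the template duplex, was at 48.4, 53.6 and 45.6 CPM in VC cells and 14.7, 12.6 and 17.5 CPM in VHL-KO cells. RAD51AP1, which stimulates strand invasion, was at 11.4, 8.55 and 13.6 CPM and 4.27, 3.34 and 2.58 CPM. Both were lower in every VHL-KO sample, with log2 fold changes of -1.72 (adjusted p = 2.81e-11) and -1.71 (adjusted p = 9.04e-08). XRCC3, the partner of RAD51C in the smaller complex, fell (-1.66), as did RAD54B (-1.69). Under the GC and length offsets these were at -2.04 and -1.23, with RAD54L at -1.69, RAD51AP1 at -1.40 and XRCC2 at -1.94. In the annotation used here 34.2% of the exonic bases of XRCC3 and 26.2% of those of RAD54L overlap a gene on the other strand, and 65.5% of those of RAD54B overlap another gene on the same strand, and whether counting used strand is not stated.

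Genes of break sensing and end resection fell in 6 of 7 cases (median -1.74). DNA2, a nuclease and helicase of long-range resection, was at 8.82, 7.27 and 10.1 CPM in VC and 0.786, 1.30 and 0.797 CPM in VHL-KO cells. Its level fell 9.15-fold between group means (log2 fold change -3.19, SE 0.24, adjusted p = 2.94e-11). BLM, the helicase that works with DNA2 and also dissolves double Holliday junctions, was at 9.14, 7.88 and 9.96 CPM and 2.28, 1.81 and 2.02 CPM. EXO1, the exonuclease of the parallel resection route and of mismatch repair, was at 31.7, 28.2 and 33.8 CPM and 5.92, 8.71 and 7.41 CPM. In both genes the groups were widely separated (BLM -2.14, adjusted p = 1.07e-09, EXO1 -2.10, adjusted p = 1.14e-11), so mRNAs of both long-range routes were lower.

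The MRN complex binds the broken end and starts resection together with RBBP8 (CtIP). NBN, its regulatory subunit, was at 54.7, 39.98 and 70.9 CPM in the VC samples, which differed widely among themselves, and 14.2, 18.2 and 17.5 CPM in the VHL-KO samples (log2 fold change -1.74, SE 0.16, adjusted p = 8.73e-10). The nuclease subunit MRE11 (-1.23, adjusted p = 6.10e-07) and RBBP8 (-1.23, adjusted p = 5.52e-07) fell by almost the same amount. RAD50, the ATPase of the complex, had only 56, 47 and 58 reads in VC samples and 16, 13 and 38 reads in VHL-KO samples, or 1.64, 1.58 and 1.53 CPM and 0.599, 0.603 and 1.78 CPM. In CPM, VHL-KO replicates 1 and 2 were low, replicate 3 lay above all VC samples, and the gene did not pass the test (-0.69, SE 0.36, adjusted p = 0.105). Without VHL-KO replicate 3 the log2 fold change of RAD50 was -1.39 (adjusted p = 0.00220), so that library decides its value. Of the exonic bases of RAD50, 91.0% overlap another annotated gene on the same strand in the annotation used here, so its count is uncertain.

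All 8 genes of the Fanconi anaemia core complex fell (median -1.46), the complex that attaches ubiquitin to FANCD2 and FANCI. FANCB, on the X chromosome, had 99, 69 and 124 reads in VC samples and 4, 4 and 11 reads in VHL-KO samples, or 2.90, 2.32 and 3.27 CPM and 0.1497, 0.185 and 0.516 CPM. Its fall (log2 fold change -3.35, SE 0.38, adjusted p = 4.00e-08) was measured from few reads in VHL-KO cells and depended on single libraries, at -3.00 without VHL-KO replicate 1, -3.15 without replicate 2 and -4.06 without replicate 3. DNA2 was lower than FANCB without VHL-KO replicate 1 (-3.05) and without replicate 2 (-3.46). FANCM, the translocase that anchors the complex to DNA, was at 1.96, 1.92 and 2.71 CPM and 0.449, 0.278 and 0.985 CPM, again from few reads (-1.96, SE 0.36, adjusted p = 5.26e-05, and -2.56 without VHL-KO replicate 3). FANCB and FANCM were the 2 members with under 10 reads in at least 1 sample, and both had at least 10 reads in a VHL-KO sample too.

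FANCG, a scaffold subunit, had the highest level of the complex per kilobase (25.1 CPM per kb in VC and 10.8 CPM per kb in VHL-KO cells). It was at 62.1, 69.9 and 60.3 CPM in VC and 26.02, 24.2 and 32.3 CPM in VHL-KO samples, with no overlap (-1.22, adjusted p = 2.25e-09). FANCE, which contacts FANCD2, was at 9.14, 13.1 and 10.7 CPM and 2.69, 3.94 and 3.19 CPM. It fell too (-1.75, adjusted p = 2.43e-08), with the groups apart. FANCA (-1.64) and FANCL, the ubiquitin ligase subunit (-1.28), fell over 2-fold, while FANCC (-0.65, adjusted p = 1.75e-04) and FANCF (-0.57, adjusted p = 0.00251) fell under 2-fold, FANCF not with the GC and length offsets (-0.25, adjusted p = 0.0912). Overlap with a gene on the other strand covers 27.4% of the exonic bases of FANCA and 27.3% of those of FANCL.

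The 3 Fanconi effectors all fell (median -1.90). FANCD2, a target of the core complex, was at 25.3, 25.4 and 27.9 CPM in VC and 6.63, 5.70 and 8.72 CPM in VHL-KO cells. FANCI, its partner in the clamp, was at 50.2, 41.9 and 52.0 CPM and 11.3, 15.0 and 15.4 CPM. Their falls were alike in size, -1.90 (SE 0.15, adjusted p = 9.67e-11) and -1.79 (SE 0.13, adjusted p = 2.70e-11), with no overlap of the groups. BRIP1, a helicase that binds BRCA1, was at 14.8, 11.1 and 17.6 CPM and 2.62, 2.36 and 2.91 CPM. Its fall was 5.51-fold between means (log2 fold change -2.46, SE 0.19, adjusted p = 7.73e-11). FANCD2 has near-identical pseudogene copies, and reads that match a copy equally well are lost when reads at a single location are kept.

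**Figure D2:**
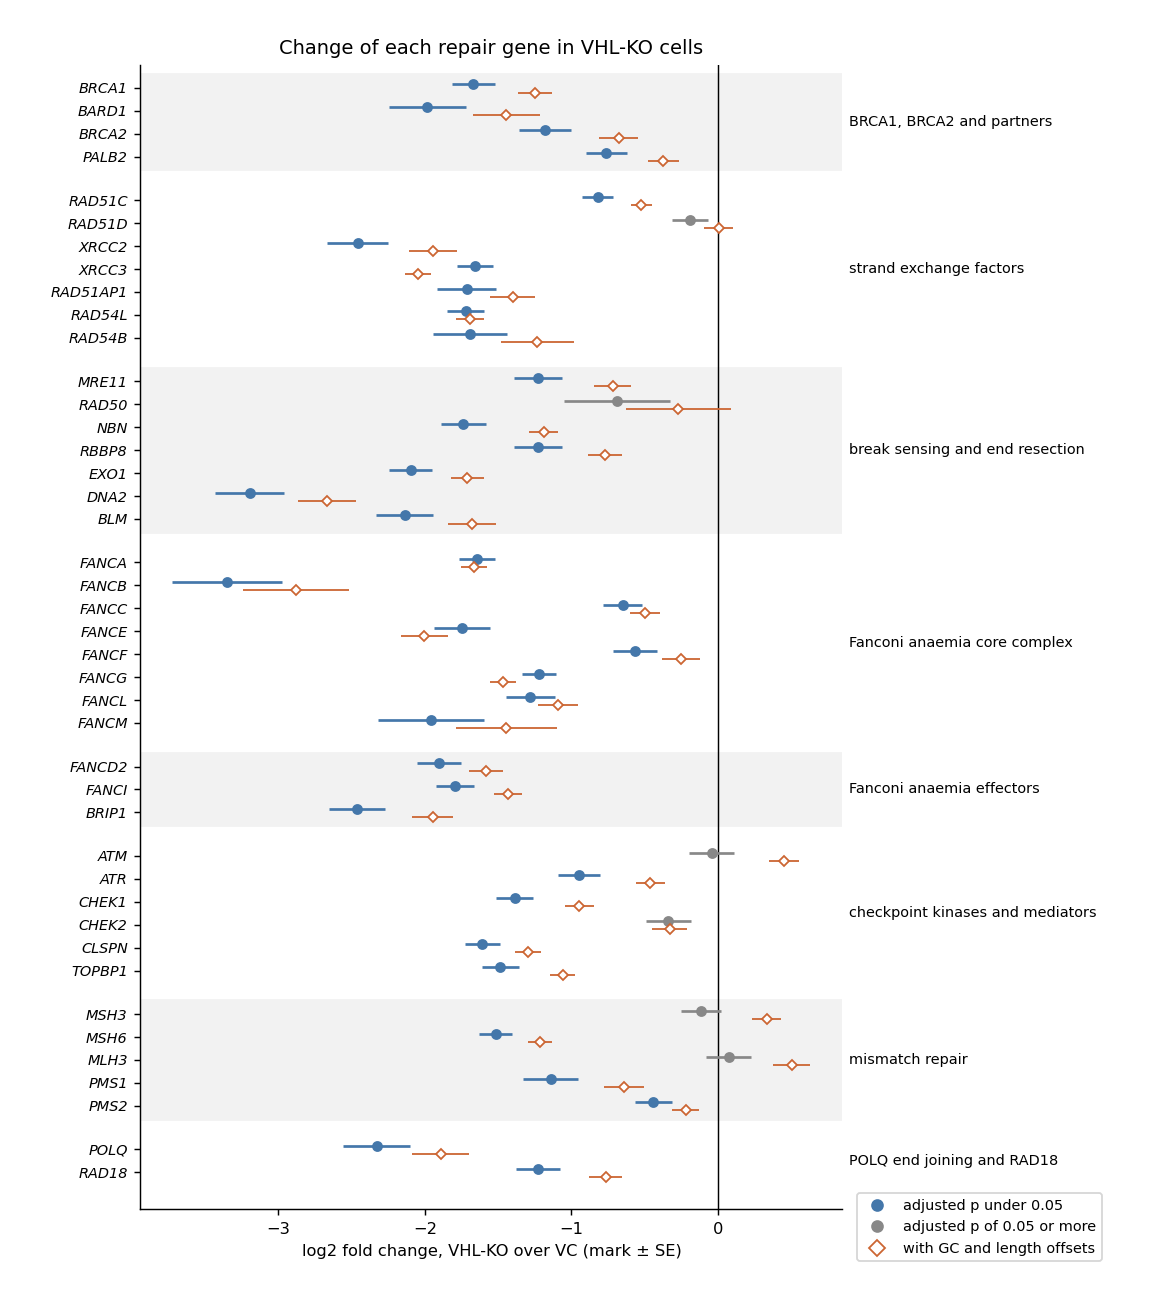
Log2 fold change of VHL-KO over VC (filled circles, ± SE) of the 42 genes by role, with the value after offsets for GC content and transcript length (open diamonds, ± SE). All circles but those of RAD51D, RAD50, ATM, CHEK2, MSH3 and MLH3 are coloured as adjusted p under 0.05.

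In the checkpoint 4 of 6 genes fell (median -1.17), among them ATR and CHEK1, while ATM and CHEK2 did not pass the test. With the GC and length offsets the median was -0.70, ATR was at -0.46, CHEK2 was called lower (-0.33) and ATM higher (0.45). ATR, the kinase that answers to single-stranded DNA at stalled forks, went from 24.1, 22.1 and 32.4 CPM in VC to 12.99, 14.8 and 12.9 CPM in VHL-KO samples (-0.95, SE 0.14, adjusted p = 3.36e-06). ATM, the kinase that answers to double-strand breaks, was at 17.9, 13.3 and 21.6 CPM and 16.1, 15.99 and 19.2 CPM. The VHL-KO samples of ATM lay within the range of the VC samples (-0.04, SE 0.15, adjusted p = 0.815). CHEK1, the kinase below ATR, was at 25.9, 25.9 and 29.0 CPM and 10.4, 9.96 and 10.5 CPM. It fell with a narrow spread in both groups (-1.39, SE 0.13, adjusted p = 1.32e-09). CHEK2, the kinase below ATM, was at 11.4, 10.8 and 10.6 CPM and 9.70, 8.11 and 8.07 CPM. Every VHL-KO sample of CHEK2 was below every VC sample by a small margin and the test was narrowly missed (-0.34, SE 0.15, adjusted p = 0.0561). Without VHL-KO replicate 1 CHEK2 passed (-0.43, adjusted p = 0.0427). CHEK2 too has pseudogene copies.

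CLSPN, the adaptor through which ATR activates CHEK1, was at 63.0, 51.1 and 59.0 CPM in VC and 16.5, 20.9 and 19.5 CPM in VHL-KO cells. TOPBP1, the activator of ATR, was at 47.4, 40.5 and 54.5 CPM and 15.1, 17.4 and 18.5 CPM. Both groups were clearly apart, with log2 fold changes of -1.61 (adjusted p = 3.14e-11) and -1.48 (adjusted p = 3.47e-10). An effect past the threshold in CHEK1 and not in CHEK2 does not show that they differ, so ratios of read counts were compared within each sample, where the scaling between libraries plays no role.

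Of the mismatch repair genes 3 of 5 fell (median -0.44). Under the GC and length offsets their median was -0.22, with MSH3 (0.33) and MLH3 (0.50) called higher. MSH6, which pairs with the common MutS subunit to recognise single mismatches, was at 94.6, 78.3 and 107 CPM in VC and 33.4, 34.0 and 30.2 CPM in VHL-KO samples. It had the highest mean CPM of the 42 genes in VC cells and fell with no overlap (-1.52, SE 0.11, adjusted p = 3.19e-11). MSH3, which takes the place of MSH6 in the complex for larger loops, was at 15.9, 13.3 and 16.6 CPM and 14.3, 14.0 and 13.9 CPM. Its VHL-KO samples lay within the range of the VC samples (-0.12, SE 0.14, adjusted p = 0.475). Among the MutL subunits PMS1 was at 11.6, 8.08 and 14.3 CPM and 5.43, 4.59 and 5.39 CPM. It fell (-1.14, adjusted p = 1.30e-05, and -0.64 with the offsets), with VC samples that varied widely but stayed above the VHL-KO samples. PMS2, the endonuclease of the complex, was at 22.61, 20.3 and 22.4 CPM and 16.8, 14.5 and 16.8 CPM, a small fall with no overlap (-0.44, SE 0.13, adjusted p = 0.00404). With the offsets PMS2 passed the edgeR test only narrowly (-0.22, adjusted p = 0.0472). PMS2 has many near-identical pseudogene copies, so its count is uncertain. MLH3, a subunit used in meiosis and in repair of loops, was at 13.4, 10.8 and 12.4 CPM and 11.6, 15.5 and 11.5 CPM, with overlapping groups (0.07, SE 0.15, adjusted p = 0.700).

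POLQ, the polymerase of microhomology-mediated end joining, was at 9.49, 9.46 and 11.8 CPM in VC and 1.72, 1.34 and 3.10 CPM in VHL-KO cells. It fell 5.02-fold between means (log2 fold change -2.33, SE 0.23, adjusted p = 4.08e-09). RAD18, the ubiquitin ligase that marks PCNA at stalled forks, was at 21.5, 17.9 and 24.4 CPM and 10.1, 7.69 and 9.47 CPM. Both genes were lower in each VHL-KO sample (-1.23 for RAD18, adjusted p = 1.504e-07).

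Ratios of read counts within a sample were compared for 6 pairs, chosen after their values were seen. Reads of MSH6 over reads of MSH3 were 5.94, 5.90 and 6.42 in VC samples and 2.33, 2.42 and 2.17 in VHL-KO samples, or 6.09 ± 0.289 and 2.31 ± 0.127 (mean ± SD, n = 3). The groups did not overlap in this balance of the alternative MutS partners, with a gap far larger than the spread. CHEK1 over CHEK2 was 2.47 ± 0.247 in VC and 1.20 ± 0.119 in VHL-KO cells, and ATR over ATM was 1.503 ± 0.162 and 0.802 ± 0.128. PMS1 over MLH3 was 0.922 ± 0.207 and 0.412 ± 0.0998, and XRCC2 over RAD51D was 0.790 ± 0.230 and 0.165 ± 0.0446. In BARD1 over BRCA1, the subunits of one ligase, the ratios were 0.131 ± 0.0180 and 0.102 ± 0.0212 and nearly met between the groups. Each pair gave p = 0.1 in the two-sided exact permutation test of the log2 ratio (also 0.1 after Benjamini-Hochberg adjustment over 6 pairs), the smallest p that 20 arrangements of 3 against 3 samples allow, so no pair could pass 0.05.

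**Figure D3:**
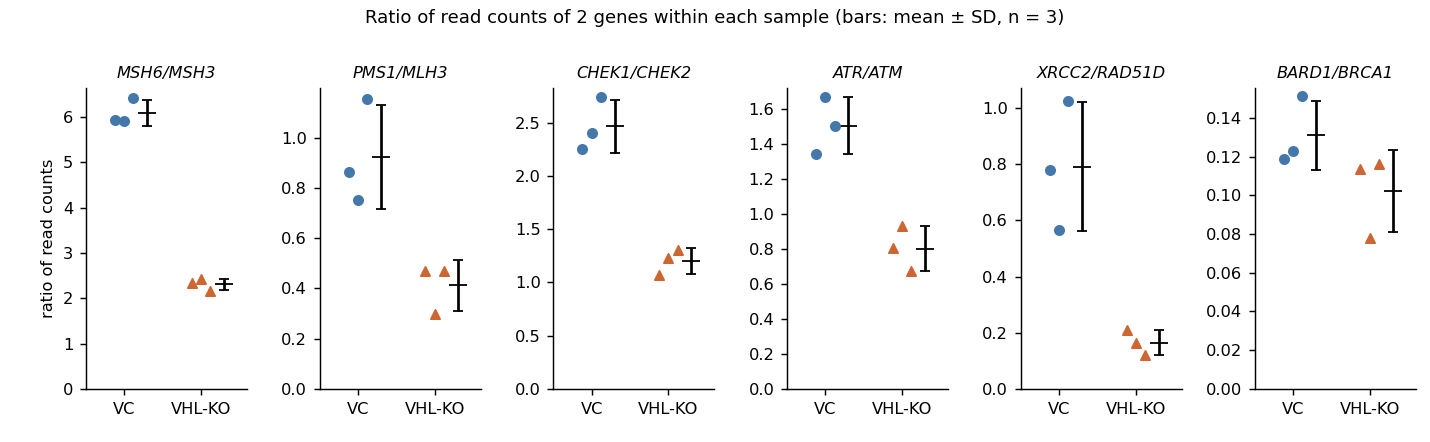
Ratio of read counts of 2 genes within each VC (circles) and VHL-KO (triangles) sample, with mean ± SD (n = 3) for 6 pairs, each axis starting at 0. VC and VHL-KO samples do not overlap in any of the 6 pairs, and BARD1/BRCA1 shows the smallest gap.

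Transcripts of low GC content were lower in VHL-KO cells across all genes. Spearman's rho between log2 fold change and the GC content of the transcript was 0.32 over 17355 genes and 0.26 over the 42 members, a description across genes, which are not independent replicates. Members with a GC content under 40% had 13 of 14 genes lower (median -1.70) against 50.9% of all genes in that range (median -0.47). Between 40 and 45% 16 of 19 members fell (median -1.48) against 42.9% of all genes, and between 45 and 50% only 1 of 3 (median -0.34) against 31.2%. In the range of 50% and above, where 19.2% of all genes fell and their median was 0.30, all 6 members fell (median -1.65). These were XRCC3, FANCE, FANCG, FANCA, RAD54L and FANCC. With offsets per library that remove the trend with GC content and transcript length, the members' median was -1.20 and that of all genes -0.02, and 35 of the 36 members stayed lower. BRCA2 (-0.68), MRE11 (-0.72), RBBP8 (-0.77), CHEK1 (-0.95), PMS1 (-0.64) and RAD18 (-0.77) were then less than 2-fold lower. FANCF missed the test with these offsets (-0.25, adjusted p = 0.0912), and CHEK2 passed it (-0.33, adjusted p = 0.0220). ATM (0.45, adjusted p = 6.39e-04), MSH3 (0.33, adjusted p = 0.00641) and MLH3 (0.50, adjusted p = 0.00155) were then called higher. The sign of ATM and MSH3 thus depended on whether the trend was removed, while MLH3 was positive in both fits, and how far the trend is technical was not tested.

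**Figure D4:**
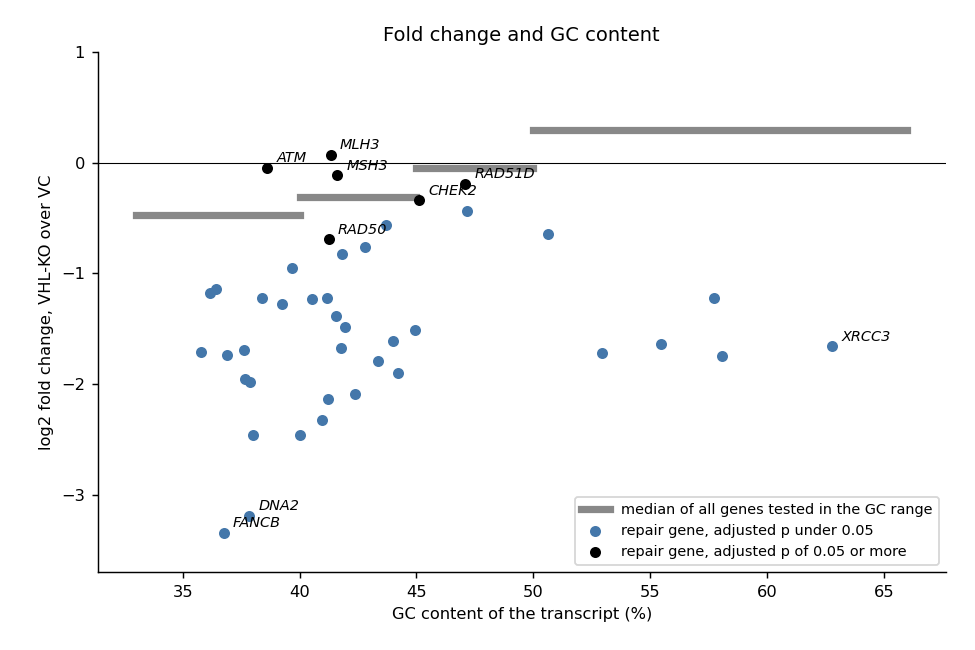
Log2 fold change of VHL-KO over VC against the GC content (%) of the transcript for the 42 repair genes, with the median of all tested genes in each of 4 GC ranges as grey bars (the outer bars are drawn only as far as the axis). The 6 genes at 50% and above lie below a grey bar at 0.30.

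Head-to-head neighbours gave a further view of single loci. Of 38 members with a RefSeq start, 18 had a start on the opposite strand within 1000 bases, and 13 such neighbours were tested, a comparison chosen after the data were seen. Of these, 5 fell, 2 rose and 6 did not pass the test, against 31.2% lower and 28.5% higher over all genes, so the counts are given only to describe these loci. NPAT, a regulator of histone genes whose start lies 429 bases from that of ATM, was at 5.68, 4.68 and 6.93 CPM in VC and 1.87, 1.90 and 3.19 CPM in VHL-KO cells. NPAT fell (-1.32, SE 0.23, adjusted p = 2.30e-05) while ATM did not pass the test. Beside BRCA1, NBR2, a noncoding RNA whose start lies 193 bases away, was at 5.39, 3.87 and 5.14 CPM and 8.05, 8.95 and 5.86 CPM. NBR2 rose (0.66, SE 0.19, adjusted p = 0.00424) and NBR1, an autophagy receptor gene, 82 bases from a more distant listed start of BRCA1, was at 0.07 (adjusted p = 0.551), while BRCA1 fell.

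DCTN5, a dynactin subunit gene 156 bases from PALB2, was at 0.04 on the log2 scale (adjusted p = 0.708), and ANKRD49, 140 bases from MRE11, was at -0.02 (adjusted p = 0.954). ZFYVE21, opposite XRCC3, was at -0.15 (adjusted p = 0.254), and HSCB, opposite CHEK2, rose (0.57, adjusted p = 0.00219). AIMP2, a scaffold of the tRNA synthetase complex, fell more than PMS2 across the shared promoter region (-0.72, adjusted p = 1.15e-06). MOSPD2 beside FANCB (-1.16), ORMDL1 beside PMS1 (-0.40) and FERRY3 beside RAD51AP1 (-0.66) also fell, each less than its partner. The differences within these pairs were not tested. With the GC and length offsets NBR1 (0.35) and DCTN5 (0.28) were called higher and ZFYVE21 lower (-0.40), while ORMDL1 (-0.08) and FERRY3 (-0.13) missed the test.

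Other lists of repair genes held both falls and rises. Of 61 tested genes from other repair and checkpoint factors 36 fell and 10 rose (median -0.46). Falls included those of RMI1 (-2.38), which works with BLM on Holliday junctions, FIGNL1 (-2.27) and USP1 (-2.04), the deubiquitinase of FANCD2. Rises included those of FAAP20 (1.04), SWI5 (0.85) and BABAM1 (0.82), the last a subunit of a BRCA1 complex. With the GC and length offsets these were at 0.23, 0.35 and 0.42, and WDR48, the partner of USP1, went from 0.30 to 0.72. Of the exonic bases of BABAM1, 59.9% overlap another gene on the same strand, so its count is uncertain. In non-homologous end joining, which rejoins ends without a template, 6 of 11 genes fell and 2 rose (median -0.43). PRKDC, the catalytic kinase, was at 388, 422 and 451 CPM in VC and 161, 147 and 169 CPM in VHL-KO samples (-1.40, adjusted p = 3.86e-12). LIG4 (-1.28) and XRCC5 (-0.97) fell, and the gap-filling polymerases POLL (0.91) and POLM (0.74) rose.

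In base and nucleotide excision repair 9 of 24 genes fell and 7 rose (median -0.13), shares near those of all genes (31.2% and 28.5%). NEIL3 (-2.58), a glycosylase, UNG (-1.45), which removes uracil, and RAD23B (-1.09) were among those that fell. NEIL1 (2.14), a glycosylase of oxidized bases, and XPA (0.79), a damage verification factor, rose. NEIL1 was at 0.176, 0.303 and 0.237 CPM in VC cells and 1.12, 1.02 and 1.03 CPM in VHL-KO cells. These were 6, 9 and 9 reads in VC and 30, 22 and 22 reads in VHL-KO samples. NEIL1 thus reached the filter of 10 reads only in VHL-KO cells, and 52.7% of its exonic bases overlap a gene on the other strand. The repair genes of the 42-gene set thus had a lower median than each of these 3 repair lists, a description with no test of the difference. The median GC content of transcripts was 41.5% in the 42-gene set and 46.7% in the other repair and checkpoint list. It was 45.1% in non-homologous end joining and 51.2% in base and nucleotide excision repair, and its part in these medians was not tested.

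Genes of the cell cycle moved with the repair genes. In the list of DNA replication and G1/S genes 41 of 42 fell (median -1.76), and POLA2 did not pass the test. In the list of mitosis and G2/M genes 34 of 34 fell (median -2.08). E2F8, an atypical member of the E2F family (-4.07, and -4.70 without VHL-KO replicate 3), the replication factor MCM10 (-3.23) and the polymerase subunit POLE2 (-2.76) fell in the former list, and the spindle checkpoint kinase TTK (-3.06), the cytokinesis gene ANLN (-2.92) and BUB1B (-2.81) in the latter. The summed level of the replication list, in which MCM7 was the most abundant gene, was 4014, 4254 and 4017 CPM in VC and 1334, 1366 and 1461 CPM in VHL-KO cells. That of the mitosis list, led by CDC20, was 3715, 3563 and 3811 CPM and 1010, 1002 and 1054 CPM. The ratios of VHL-KO to VC were 0.339 and 0.276, against 0.413 for the repair genes. The part of cell cycle activity in the fall of the repair genes was not tested.

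**Figure D5:**
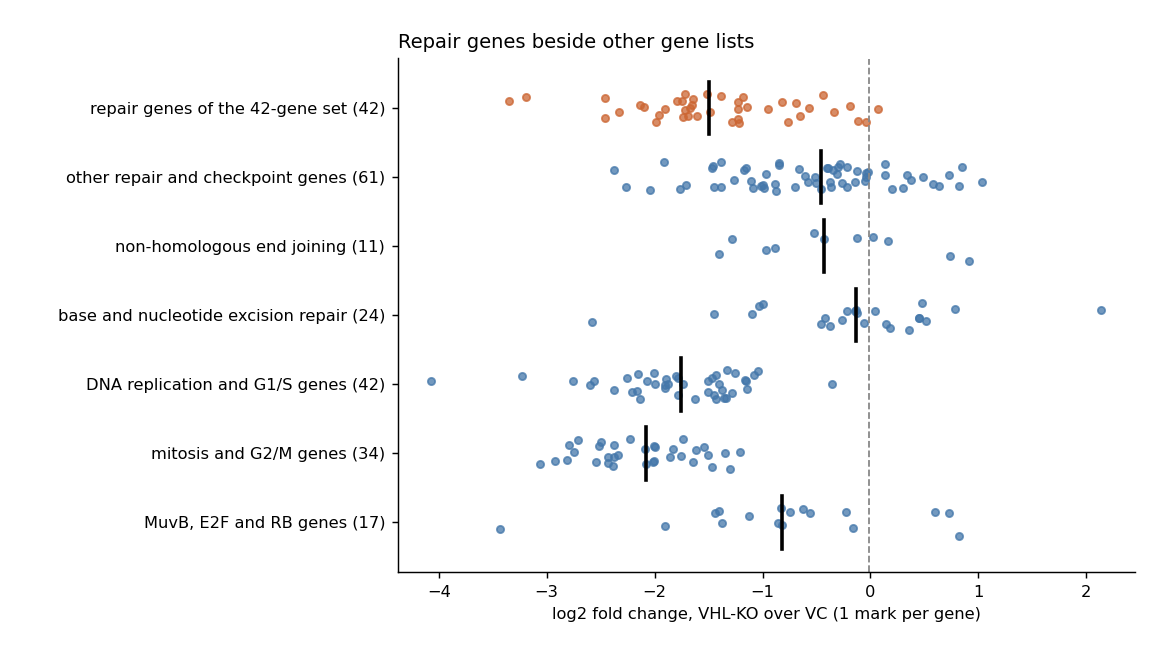
Log2 fold change of VHL-KO over VC for each gene (marks) of the 42-gene set and of 6 other lists, with the number of tested genes in brackets, the median of each list (black bars) and the median of all tested genes (dashed line). The medians are -1.50 for the set, -1.76 for DNA replication and G1/S genes and -2.08 for mitosis and G2/M genes.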

How the data were processed

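RNA-seq measured 6 samples of Caki-1 cells, grouped by the genotype in the labels (3 VC, 3 VHL-KO). The authors deposited raw read counts per gene, without normalization or pooling. Per the study's methods, reads were trimmed with Trim Galore and cutadapt, aligned with STAR to GRCh38.p13, kept when they mapped to a single location and counted with HTSeq. Tool versions, the annotation release and strand settings are not given in the sources used here. The VC libraries held 31789923, 28463579 and 34881739 counts, and those of VHL-KO 29139722, 22805385 and 22628246. A count of 0 allows up to 3 counts, between 0.0790 and 0.141 CPM, for counting error only. The chi-square per degree of freedom between replicates was 6.43 to 35.3, so replicates were distinct libraries and not duplicates.

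Differences of VHL-KO from VC were fitted with edgeR 4.0.16 in R 4.3.3 (TMM factors, quasi-likelihood F test, two-sided, Benjamini-Hochberg adjustment over the 17401 genes that reached 10 reads in some sample, threshold 0.05). The fit was tested on simulated data. The members and lists were chosen with earlier results of these data known. Values in every sample are given, in each role group, for the 3 members with the largest absolute log2 fold change, the most abundant one and any called against the majority, and of other lists the 3 largest called falls and rises are named, except for a gene that is not reported here. Other genes were named to account for every member or after their values were seen. Transcript length, GC content and gene overlaps came from GENCODE release 44 (17355 genes matched), and promoter windows from RefSeq. Alternatives were DESeq2 1.42.0, other scalings (relative log expression, upper quartile, library size alone), no filter beyond 1 count or 10 reads in all 6 samples, leaving out each replicate, the replicate number as a block, and offsets for GC content and length (natural splines with 5 degrees of freedom), alone and with the block. Biology that tracks GC content is also taken out by these offsets. Exact permutation tests used scipy 1.17.1, and figures were drawn with matplotlib 3.10.9.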

Additional observations from a re-analysis of the deposited data

How the results depend on the processing

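Of the 36 repair genes called lower, 35 were called lower under each of the 15 alternatives that tested them. The count was 34 of the 40 tested with 10 reads in every sample, 39 with library size alone and 36 with DESeq2, and 36 to 37 without a replicate. The median log2 fold change moved by more than the spread between replicates (SD 0.12) under library size alone (-1.70), under offsets for GC content and length (-1.20, or -1.20 with the replicate block added) and without VC replicate 3 (-1.37), the upper end of a range from -1.55 to -1.37 over replicates left out. Library size alone and upper quartile factors moved the median of all genes from -0.01 to -0.20 and 0.10. The share of higher among called genes moved from 47.7% to 35.8% and 55.0%. The members' median minus that of all genes was -1.49 in both. Such factors shift all genes by about the same amount, so this difference could hardly move and is no measure of stability. Under the offsets 3 members were called higher, alone and with the replicate block, where 0 had been. With offsets alone and with offsets and block, ATM went to 0.45 and 0.45, and MSH3 to 0.33 and 0.33. Replicate numbers did not pair the samples: deviations of equal numbers correlated at 0.063, 0 and 0.028, and the block alone gave 10284 called genes against 10394, with 36 members lower (median -1.49). FANCB, FANCM and RAD50 had few reads in VHL-KO cells, which limits their values. The count of RAD50 is also uncertain from its overlap with another gene, and the part of depth and overlap was not tested. The causes of these moves were not tested.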

Other observations

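In a list of MuvB, E2F and RB genes 12 of 17 tested genes fell and 3 rose (median -0.82), against 31.2% lower and 28.5% higher over all genes. E2F1 (-1.45), E2F2 (-1.38), E2F7 (-1.36) and E2F8 (-4.07) also fell and are counted in the replication list. LIN9, a core subunit of MuvB, was at 6.82, 4.11 and 6.85 CPM in VC and 0.524, 0.881 and 0.234 CPM in VHL-KO samples (-3.43, adjusted p = 1.24e-09, edgeR). MYBL2 (-1.90) and FOXM1 (-1.44), which bind MuvB to activate mitotic genes, fell as well. CDKN1A, the inhibitor of cyclin-dependent kinases, was at 218, 240 and 204 CPM and 407, 386 and 376 CPM and rose (0.82, adjusted p = 2.37e-08). TFDP2, a partner of E2F proteins, rose by 0.59. LIN37, a MuvB subunit needed for repression, was at 0.72 (adjusted p = 0.0420), a call lost under 10 of 15 alternatives, among them DESeq2 (adjusted p = 0.0684). It was at 0.35 without VHL-KO replicate 2 (adjusted p = 0.364). Of the exonic bases of LIN37, 80.4% overlap another gene on the same strand, so its count is uncertain.

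The core letters of the hypoxia response element, ACGTG or GCGTG on either strand, were in 69.2% of the members' promoter windows and 48.4% of all windows, and in 65.1% of windows of the DNA replication and G1/S list. These letters are GC-rich, members' windows had a median GC content of 64.3% against 58.7%, and its part was not tested. Of the members called lower 65.9% of windows held them, and of the members not called 87.5% (7 of 8 windows). Among HIF targets NDRG1 was at 12.1, 11.1 and 11.7 CPM in VC and 729, 774 and 781 CPM in VHL-KO cells, while EGLN3, a HIF hydroxylase gene, was at 2.02, 1.38 and 1.76 CPM and 0.374, 0.927 and 0.891 CPM. Of 8 tested kidney epithelial markers 5 rose and 2 fell (median 0.44), with CDH16 at 3.42 and LHX1 at -1.67. Of the rises KRT19 missed the test under 11 of 15 alternatives (adjusted p = 0.0751 with DESeq2), and KRT8 (0.05, adjusted p = 0.388) and KRT18 (-0.11, adjusted p = 0.0950) missed it with the GC and length offsets.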
